A study of Homo sapiens with 15 samples.

Results

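Ribosome biogenesis and nucleolar genes were followed in THP-1, a human monocytic leukaemia cell line, exposed to either of 2 agents directed against tumour necrosis factor. The set named 35 genes of known function, and each gene was followed through the probe sets annotated to it alone. Of these genes, 31 had such a probe set, with 67 probe sets in all, out of 41091 probe sets annotated to a single gene and 54613 non-control probe sets on the array. NOP56, DKC1 and BOP1 were represented only by probe sets annotated jointly with small RNA genes, no probe set was annotated to GNL3 in the table used here, and these 4 genes were not analysed. The 15 arrays fell into 5 groups of 3, which the study describes as biological replicates. The groups were cells given infliximab for 6 h, infliximab for 24 h, CDP870 for 6 h, CDP870 for 24 h, and cells left unstimulated at 0 h. Infliximab is a chimeric monoclonal antibody against tumour necrosis factor, and CDP870, now known as certolizumab pegol, is a PEGylated antibody fragment without an Fc part. The labels state no dose, and no untreated cells were collected at 6 h or 24 h, so the agent and the time in culture cannot be told apart in any comparison with 0 h. THP-1 is a single leukaemic line, and the monocytic genes LYZ, CSF1R, MPO, SPI1 and ITGAM passed the filter on low values used here, ITGAM with levels of 3.07 to 4.02 near the array medians of about 3, while CD14 did not pass it. Markers of other lineages, such as CD3D, CD79B, HBB and COL1A1, passed it too, so passing it does not identify a cell type.

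Ribosomes are built in the nucleolus, where RNA polymerase I transcribes the ribosomal RNA precursor. Small nucleolar ribonucleoproteins modify that precursor, and a succession of assembly factors cleaves, folds and exports it as small and large subunits. The transcription factor MYC is known as a broad activator of this programme, and many of its targets carry the E-box motif CACGTG near the transcription start.

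Cells given infliximab for 6 h had lower levels of 16 of the 31 members than untreated cells, and no member passed the threshold with CDP870. All values are deposited log2 expression levels, all changes are differences of group means on that scale, and a call is an adjusted p under 0.05 by limma over all tested probe sets. Each gene takes its values from whichever tested probe set had the highest mean over the arrays, and levels of different genes are not compared. With the mean level of each array's hybridisation spike-ins, control transcripts added to each sample, as a covariate, 1 of the 16, GEMIN5, was still called, and the lower calls over all probe sets were 40 of 28897 in place of 1271. The spike-in level was highest at 6 h of infliximab and lowest in untreated cells, and epithelial genes differed by agent, as given further on. In RNA from whole cultures, less RNA per cell and fewer cells with the transcript cannot be told apart. At 6 h 0 members were higher than in untreated cells, where 5.7% of the 13607 genes tested were lower and 4.52% higher. The median change of the 31 members was -0.37, with a range of -0.95 to 0.28, and the median over all genes was -0.05. After 24 h of infliximab 10 members were lower, where 3.45% of genes were lower, and 1 member, MYC, was higher, where 4.75% of genes were higher. A fit of only the untreated and 24 h infliximab arrays lost all 11 of these calls, with 200 calls over all probe sets in place of 1899. The shares of all genes given here also apply to the smaller gene lists below. The median change of the members at 24 h was -0.26, and that of all genes was -0.02. On every infliximab array the level lay below every untreated array for 21 members at 6 h, where this held for 19.8% of all genes, and for 15 members at 24 h, where it held for 11.4%. Over all their tested probe sets, 21 of 62 were lower at 6 h and 14 at 24 h, where 4.4% and 2.79% of all probe sets were lower, and no member had probe sets called in opposite directions.

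Members did not pass the test with CDP870. Against untreated cells 0 of 31 were called at 6 h and 0 of 31 at 24 h by limma, where 0% of all genes were called at either time. At an unadjusted p under 0.05 there were 2 members at 6 h and 0 at 24 h, where 4.12% and 4.61% of all genes were. All CDP870 arrays lay below all untreated arrays for 6 members at 6 h and 5 at 24 h, where this held for 5.95% and 7.44% of all genes, and above them for 1 member at each time, NPM1, where this held for 3.66% and 1.68%. LYAR, RRP9, NOP14 and PES1 were among the lower ones at both times. The median change of all 31 members with CDP870 was 0.01 at 6 h and -0.04 at 24 h. All 4 comparisons with untreated cells used the same 3 untreated arrays.

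**Figure D1:**
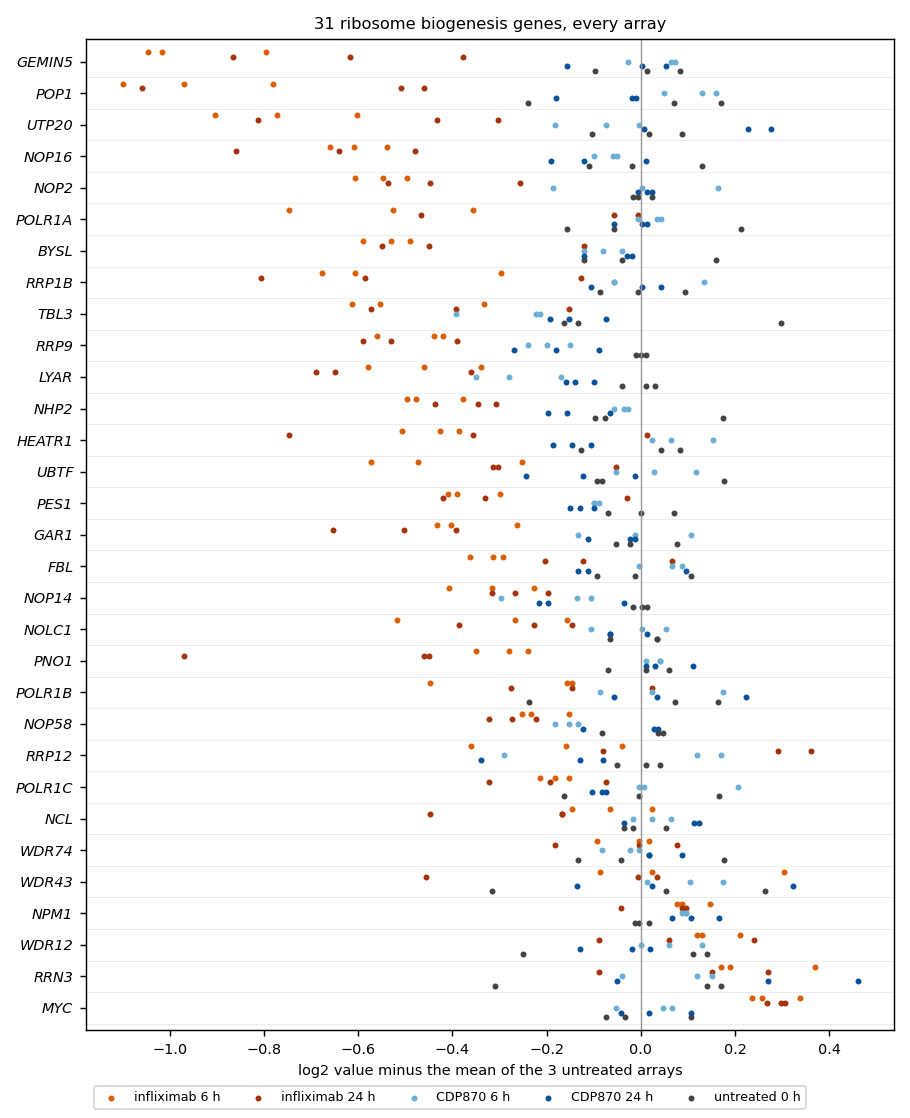
Log2 level of each of 31 genes on every array minus the mean of the 3 untreated arrays, with 1 point an array, genes ordered by their change at 6 h of infliximab and colours marking the 5 groups. Points of infliximab lie to the left for genes in the upper rows, such as GEMIN5 and POP1, and points of CDP870 overlap with the untreated ones for most genes.

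In the direct comparison of the agents at the same time, the differences of means do not involve the untreated arrays. Those arrays still enter the filter and the replicate spread estimated in the fit, and so the adjusted p and the calls. At 6 h 13 of 31 members were lower with infliximab than with CDP870 and 0 were higher, where 4.95% of all genes were lower and 5.55% higher. At 24 h 9 of 31 were lower and 0 higher, where 2.14% of all genes were lower and 6.06% higher. A fit of only the arrays compared at 24 h lost all 9, with 331 calls over all probe sets in place of 1882. By probe set, 18 of 62 were lower at 6 h and 11 at 24 h, where 3.98% and 1.79% of all probe sets were lower. The groups did not overlap, with infliximab lower, for 19 members at 6 h and 14 at 24 h, where this held for 23.7% and 9.69% of all genes. The median difference was -0.29 at 6 h and -0.22 at 24 h, against -0.05 and 0.02 over all genes. GAR1, GEMIN5, NOP16, NOP2, POP1 and UTP20 were lower at both times; these 6 are 46.2% of the 13 and 66.7% of the 9, and 1.17% of all genes tested were lower at both times.

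**Figure D2:**
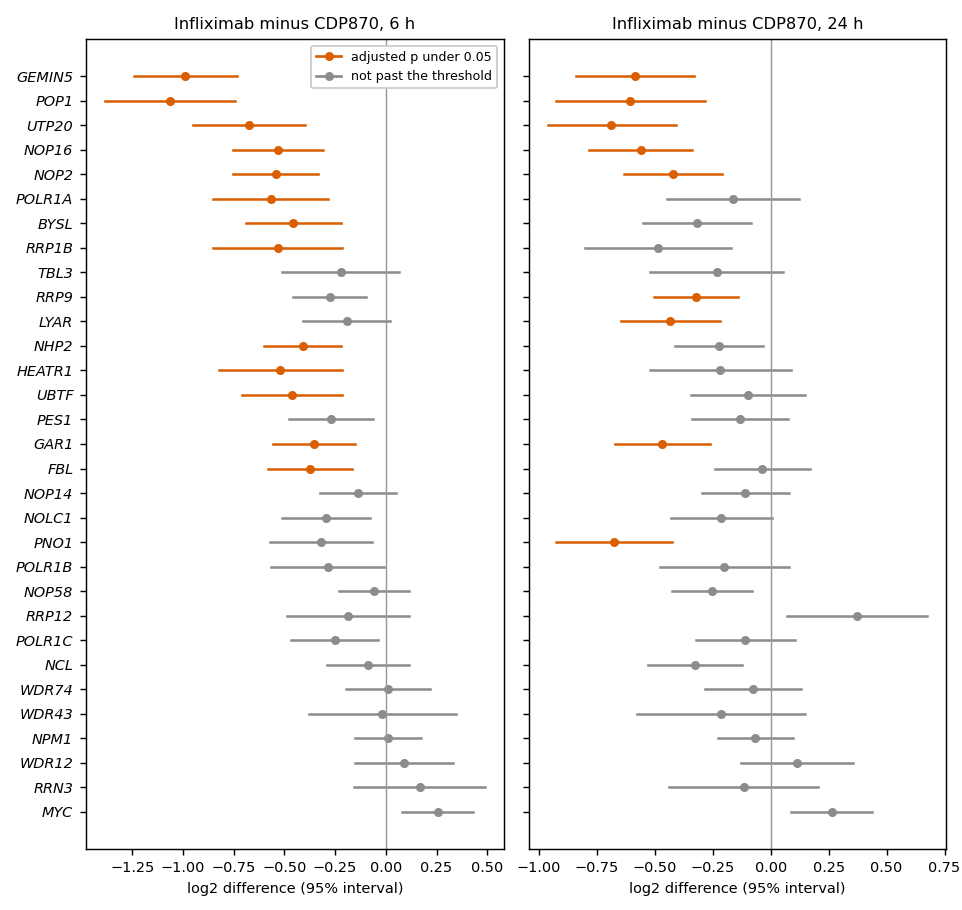
Difference in log2 level, infliximab minus CDP870, for 31 genes at 6 h (left) and 24 h (right), with the 95% interval of the limma fit and orange marking an adjusted p under 0.05. GEMIN5, POP1 and UTP20 lie furthest to the left at 6 h, and MYC lies to the right of 0 without passing the threshold.

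Promoter windows from RefSeq (GRCh38.p14, 250 bases before to 50 bases after the annotated start) were found for 28 of the 35 members. The hexamer CACGTG, which reads the same on both strands, occurred in 12 of these 28 members, or 42.9%, and in 12.5% of the 10903 array-tested genes with a window. Among members lower after 6 h of infliximab it occurred in 8 of the 14 with a window, and among the other tested members in 3 of 11, namely FBL, PNO1 and WDR43. A gene counted if any of its windows held it, and GAR1 and LYAR each had another window without it. PNO1 was called lower at 24 h of infliximab, and FBL was called lower than with CDP870 at 6 h. The motif CCAAT occurred in 32.1% of the 28 members and 42.2% of array-tested genes, CCGGAAG in 28.6% and 20.8%, and TGATGNAA in 0 members and 2.88%, with both strands searched. These are descriptions of letters in a window without a test. The 8 matches among members lower at 6 h are shown with their surroundings. They are given 5′ to 3′ on the strand of the gene with the hexamer in capitals. These promoters were picked for holding the hexamer, so sharing it is no result.
UTP20: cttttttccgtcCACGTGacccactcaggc
LYAR: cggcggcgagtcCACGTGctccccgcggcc
RRP9: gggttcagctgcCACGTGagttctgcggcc
PES1: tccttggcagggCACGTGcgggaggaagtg
NOP14: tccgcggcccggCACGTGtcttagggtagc
BYSL: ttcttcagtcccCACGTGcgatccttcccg
GAR1: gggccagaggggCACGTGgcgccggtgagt
NOP2: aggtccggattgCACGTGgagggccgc
The hexamer began 10 bases before the start in UTP20 (chr12:101280083-101280112, plus strand), 64 bases before it in LYAR (chr4:4290068-4290097, minus strand) and 5 bases before it, spanning the start, in RRP9 (chr3:51941892-51941921, minus strand). It lay after the start in PES1 (chr22:30591880-30591909, minus strand), NOP14 (chr4:2963374-2963403, minus strand), BYSL (chr6:41921515-41921544, plus strand), GAR1 (chr4:109815781-109815810, plus strand) and NOP2 (chr12:6568242-6568268, minus strand).

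The 250 bases upstream of the start are printed for UTP20, which holds the hexamer, and for GEMIN5, which had the smallest p of the members over the 5 groups and holds none, to set a promoter with the motif beside one without it.
UTP20: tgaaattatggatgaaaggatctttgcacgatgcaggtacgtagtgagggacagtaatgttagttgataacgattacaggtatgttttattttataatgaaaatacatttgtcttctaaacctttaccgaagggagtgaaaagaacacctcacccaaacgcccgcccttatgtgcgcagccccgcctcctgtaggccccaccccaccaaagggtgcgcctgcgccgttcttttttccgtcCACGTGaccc
GEMIN5: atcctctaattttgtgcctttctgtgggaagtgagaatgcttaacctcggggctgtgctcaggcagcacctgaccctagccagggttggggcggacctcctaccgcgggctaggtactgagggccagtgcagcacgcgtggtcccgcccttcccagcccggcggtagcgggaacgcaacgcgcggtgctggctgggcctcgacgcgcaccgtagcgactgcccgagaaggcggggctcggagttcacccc
The stretches are chr12:101279855-101280104 on the plus strand for UTP20 and chr5:154938212-154938461 on the minus strand for GEMIN5. The GC content was 47.6% in UTP20 and 66.4% in GEMIN5.

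MYC had higher values with infliximab, past the threshold at 24 h. Its level was 9.38, 9.48 and 9.40 after 6 h of infliximab and 9.45, 9.44 and 9.41 after 24 h. It was 9.19, 9.09 and 9.21 after 6 h of CDP870, 9.25, 9.16 and 9.10 after 24 h of CDP870, and 9.11, 9.07 and 9.25 in untreated cells. Every infliximab array was above every CDP870 and untreated array. The change from untreated cells was 0.28 ± 0.08 (SE, limma adjusted p = 0.0511) at 6 h and 0.29 ± 0.08 (adjusted p = 0.0489) at 24 h, and the second call was kept in only 6 of 25 alternative settings, whose adjusted p ran over 0.00781 to 0.329. Against CDP870 the difference was 0.26 at both times, with an adjusted p of 0.0661 at 6 h and 0.0745 at 24 h.

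Among partners and antagonists of MYC, MXI1, which competes with MYC for the partner MAX, was higher with infliximab. Its change from untreated cells was 0.56 at 6 h (limma adjusted p = 0.00108) and 0.67 at 24 h (adjusted p = 0.000231). MXD1, another antagonist, was higher by 0.74 at 24 h (adjusted p = 0.0258). Of 11 tested genes of this network other than MYC, 1 was higher at 6 h and 2 at 24 h, and 0 were lower at either time. Over all genes 4.52% were higher and 5.7% lower at 6 h, and 4.75% higher and 3.45% lower at 24 h.

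Of the 5 members of the RNA polymerase I machinery, 2 were lower at 6 h and 0 at 24 h of infliximab by their representative probe set. POLR1A, the largest subunit, read 4.55, 4.33 and 4.72 at 6 h of infliximab, against 4.92, 5.29 and 5.02 in untreated cells, without overlap, and changed by -0.54 ± 0.13 (SE, limma adjusted p = 0.0213). UBTF, the factor that binds the ribosomal DNA promoter, averaged 5.57 ± 0.16 at 6 h of infliximab and 6.00 ± 0.15 in untreated cells (SD, n = 3 each), a change of -0.43 (limma adjusted p = 0.0311). Both were also lower than with CDP870 at 6 h, with differences of -0.57 for POLR1A and -0.46 for UBTF. POLR1B, the second-largest subunit, POLR1C, a subunit shared with RNA polymerase III, and the initiation factor RRN3 had changes of -0.25, -0.18 and 0.24 at 6 h and did not pass the test.

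At 24 h none of these 5 genes was called by that probe set against untreated cells or against CDP870. POLR1A averaged 4.90 ± 0.25 after 24 h of infliximab and 5.08 ± 0.19 in untreated cells (SD, n = 3 each), and its groups overlapped. Other probe sets of the same genes did not all match. A second probe set of POLR1A was lower at both times, with changes of -0.38 and -0.47, and another had values of -0.06 and 0.11. The second probe set of POLR1C was lower, with changes of -0.33 at 6 h and -0.34 at 24 h, and the 4 further probe sets of UBTF ranged from -0.47 to -0.28 at 6 h without a call.

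Of 15 other RNA polymerase I factors, 3 were lower at 6 h and 1 at 24 h, with median changes of -0.19 and -0.17. Over all genes 5.7% were lower at 6 h and 3.45% at 24 h. POLR1G, a polymerase I subunit, was lower, with a change of -0.59 at 6 h (limma adjusted p = 0.0114). POLR2F, a subunit common to all 3 nuclear RNA polymerases, was lower, with changes of -0.44 at 6 h and -0.40 at 24 h. Of 19 subunits and factors of RNA polymerase III, which makes transfer RNA, 3 were lower and 1 higher at 6 h, and 2 were lower at 24 h. The same shares of all genes apply here, with 4.52% of all genes higher at 6 h. POLR3K was lower at both times, with changes of -0.55 and -0.61, and POLR3GL was the gene that was higher, by 0.39.

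Of the 4 measured chaperone and scaffold proteins of the nucleolus, 3 did not pass in any comparison by their representative probe set. NPM1, a histone and assembly chaperone, had changes of 0.10 at 6 h and 0.05 at 24 h of infliximab, and NCL, which binds the ribosomal RNA precursor, had changes of -0.06 and -0.26, all without a call. NOLC1, a chaperone of small nucleolar ribonucleoproteins, had values of -0.31 and -0.25 and did not pass. Another probe set of NPM1 was lower with infliximab than with CDP870 at 6 h, with a change of -0.35 (limma adjusted p = 0.0178), while the representative one differed by 0.01.

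LYAR, a nucleolar zinc finger protein that takes part in processing the ribosomal RNA precursor, did pass. It read 7.23, 7.35 and 7.47 at 6 h and 7.45, 7.12 and 7.16 at 24 h of infliximab. CDP870 arrays read 7.53, 7.64 and 7.46 at 6 h and 7.71, 7.65 and 7.67 at 24 h, and untreated arrays 7.82, 7.84 and 7.77. All infliximab arrays and all CDP870 arrays lay below all untreated arrays. The change was -0.46 ± 0.10 at 6 h and -0.57 ± 0.10 at 24 h of infliximab (SE, limma adjusted p = 0.0119 and 0.00375), and -0.27 and -0.13 with CDP870, which were not called. Its second probe set was lower, with changes of -0.47 and -0.50 with infliximab.

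**Figure D3:**
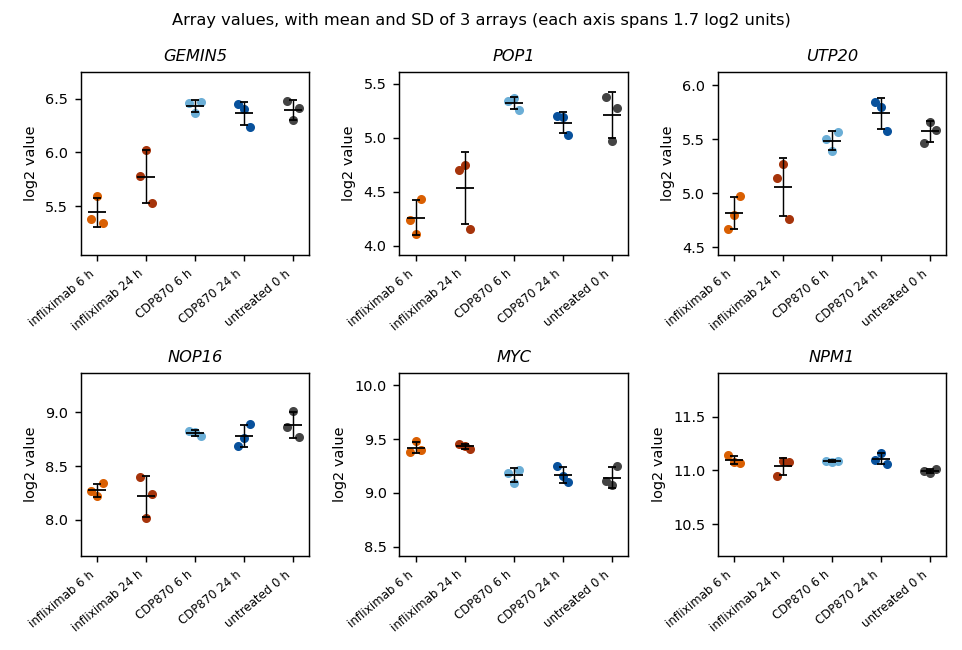
Log2 level on each array for GEMIN5, POP1, UTP20, NOP16, MYC and NPM1 in the 5 groups, with the mean and SD of 3 arrays; each vertical axis spans the same number of log2 units. The first 4 genes lie lower with infliximab, MYC lies higher, and NPM1 stays between 10.95 and 11.16.

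Of the core proteins of the nucleolar ribonucleoproteins, 4 members were measured. Box H/ACA particles guide pseudouridine formation, and both measured core proteins, GAR1 and NHP2, were lower with infliximab at 6 h and at 24 h. GAR1 read 6.99, 6.85 and 6.82 at 6 h and 6.60, 6.86 and 6.75 at 24 h of infliximab. It read 7.36, 7.12 and 7.24 at 6 h and 7.24, 7.23 and 7.14 at 24 h of CDP870, and 7.33, 7.23 and 7.20 in untreated cells. No infliximab array reached any CDP870 or untreated array. The change of GAR1 was -0.37 ± 0.10 at 6 h and -0.52 ± 0.10 at 24 h (SE, limma adjusted p = 0.0283 and 0.00514).

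NHP2 read 9.13, 9.15 and 9.25 at 6 h and 9.32, 9.28 and 9.19 at 24 h of infliximab. It read 9.57, 9.60 and 9.59 at 6 h and 9.43, 9.47 and 9.56 at 24 h of CDP870, and 9.55, 9.80 and 9.53 in untreated cells. The infliximab arrays again lay below all others. The change was -0.45 ± 0.09 at 6 h and -0.36 ± 0.09 at 24 h (SE, limma adjusted p = 0.00749 and 0.0256). Against CDP870 it was lower, with a change of -0.41 at 6 h, and the difference of -0.22 at 24 h was not called.

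Box C/D particles guide ribose methylation, and their members FBL and NOP58 were not called against untreated cells. FBL, the methyltransferase of the particle, averaged 8.77 ± 0.04 at 6 h of infliximab, 9.14 ± 0.05 at 6 h of CDP870 and 9.09 ± 0.10 in untreated cells (SD, n = 3 each). It was lower than with CDP870, with a difference of -0.37 (limma adjusted p = 0.0259), and its change of -0.32 from untreated cells did not pass (adjusted p = 0.0512). At 24 h FBL averaged 9.01 ± 0.14 with infliximab and overlapped both others. NOP58, a core protein of the same particle, had changes of -0.21 and -0.27 and was not called.

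Of 10 further snoRNP proteins and assembly factors, 4 were lower than in untreated cells at 6 h and 4 at 24 h. At both times these were RUVBL1 and RUVBL2, a pair of ATPases that assemble the particles, NUFIP1 and SHQ1. NUFIP1, an assembly factor, changed by -0.51 at 6 h and -0.53 at 24 h, and SHQ1, a chaperone of the pseudouridine synthase, by -0.37 and -0.44. Against CDP870 0 of the 10 were called at either time, and the medians there were -0.15 and -0.18.

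Small subunit assembly factors were lower for 5 of 9 members at 6 h and 3 of 9 at 24 h of infliximab. UTP20, a large scaffold of the early precursor of the small subunit, read 4.67, 4.80 and 4.97 at 6 h and 5.14, 5.27 and 4.76 at 24 h of infliximab. CDP870 arrays read 5.50, 5.39 and 5.57 at 6 h and 5.85, 5.80 and 5.58 at 24 h, and untreated arrays read 5.47, 5.66 and 5.59. Every infliximab array lay below every other array. The change was -0.76 ± 0.13 at 6 h and -0.52 ± 0.13 at 24 h (SE, limma adjusted p = 0.00284 and 0.0274), and the difference from CDP870 was -0.67 at 6 h and -0.69 at 24 h.

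RRP9, a protein of the small nucleolar ribonucleoprotein that starts cleavage of the precursor, read 5.77, 5.79 and 5.65 at 6 h and 5.82, 5.62 and 5.68 at 24 h of infliximab. CDP870 arrays read 5.97, 6.06 and 6.01 at 6 h and 6.03, 5.94 and 6.12 at 24 h, and untreated arrays read 6.21, 6.22 and 6.20. Infliximab arrays were lowest and CDP870 arrays lay between them and the untreated arrays. RRP9 changed by -0.47 ± 0.08 at 6 h and -0.50 ± 0.08 at 24 h of infliximab (SE, limma adjusted p = 0.0038 and 0.00273), and had changes of -0.20 and -0.18 with CDP870, not called. Against CDP870 it was lower at 24 h, with a change of -0.32, and not called at 6 h, with -0.28.

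BYSL, a late factor of small subunit maturation, read 6.94, 7.04 and 7.0 at 6 h and 7.41, 7.08 and 6.98 at 24 h of infliximab. It read 7.41, 7.45 and 7.49 at 6 h and 7.50, 7.41 and 7.51 at 24 h of CDP870, and 7.49, 7.69 and 7.41 in untreated cells. The groups were apart at 6 h, and at 24 h 1 infliximab array reached the lowest CDP870 and untreated arrays. The change was -0.54 ± 0.11 at 6 h (SE, limma adjusted p = 0.00839) and -0.37 at 24 h, which did not pass (adjusted p = 0.0561).

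PNO1, which matures the end of the small ribosomal RNA, was called lower at 24 h and not at 6 h. It read 7.03, 6.96 and 7.07 at 6 h and 6.86, 6.34 and 6.85 at 24 h of infliximab, and 7.32, 7.35 and 7.35 at 6 h and 7.32, 7.34 and 7.42 at 24 h of CDP870. Untreated arrays read 7.32, 7.24 and 7.37. All infliximab arrays were below all others, and the lowest was the array with the raised 3′ to 5′ signal described further on. The change was -0.63 ± 0.12 at 24 h (SE, limma adjusted p = 0.00575) and -0.29 at 6 h (adjusted p = 0.148). Its 2 other tested probe sets had changes of -0.12 and -0.21 at 24 h, without a call.

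TBL3 and NOP14, both parts of the early small subunit precursor, were lower at 6 h, with changes of -0.50 and -0.32, and not called at 24 h. NOP14 kept its call in 11 of 25 alternative settings. HEATR1, a factor of the same precursor, was lower than with CDP870 at 6 h, with a difference of -0.52 (limma adjusted p = 0.0335). WDR43 and RRP12, an export factor, were not called. WDR43 had changes of 0.08 at 6 h and -0.14 at 24 h, and RRP12 had -0.19 at 6 h and 0.19 at 24 h against untreated cells, and 0.37 at 24 h against CDP870.

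Of 43 other small subunit assembly factors, 11 were lower at 6 h and 9 at 24 h of infliximab and 0 were higher, with a median of -0.25 at both times. RRP7A, EMG1, a ribosomal RNA methyltransferase, NOC4L and PWP2 had the smallest p at 6 h, with changes of -0.55, -0.51, -0.50 and -0.59. At 24 h EMG1 was lower, with a change of -0.54, IMP3 at -0.44, RRP7A at -0.45 and IMP4 at -0.41. Against CDP870 4 were lower at 6 h and 5 at 24 h, among them EMG1 at both times, with changes of -0.45 and -0.42.

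Large subunit assembly factors were lower for 4 of 6 tested members at 6 h and 2 of 6 at 24 h. NOP16, a nucleolar factor of the large subunit precursor, read 8.27, 8.22 and 8.34 at 6 h and 8.40, 8.02 and 8.24 at 24 h of infliximab. CDP870 arrays read 8.83, 8.82 and 8.78 at 6 h and 8.69, 8.76 and 8.89 at 24 h, and untreated arrays 8.86, 9.01 and 8.77. The infliximab arrays lay below all others. NOP16 changed by -0.60 ± 0.10 at 6 h and -0.66 ± 0.10 at 24 h (SE, limma adjusted p = 0.00303 and 0.00181). A second probe set was lower too, with changes of -0.40 and -0.59, but 2 others had changes of 0.12 and -0.04 at 6 h, and the mean over the probe sets lost the 6 h call.

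NOP2, which methylates large subunit ribosomal RNA, read 6.18, 6.29 and 6.24 at 6 h and 6.53, 6.25 and 6.34 at 24 h of infliximab. CDP870 arrays read 6.79, 6.60 and 6.95 at 6 h and 6.81, 6.78 and 6.80 at 24 h, and untreated arrays 6.81, 6.78 and 6.77. No infliximab array overlapped with the others. The change was -0.55 ± 0.10 at 6 h and -0.41 ± 0.10 at 24 h (SE, limma adjusted p = 0.00387 and 0.0221).

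RRP1B, a nucleolar protein related to a yeast factor of large subunit processing, read 7.79, 7.41 and 7.48 at 6 h and 7.28, 7.96 and 7.50 at 24 h of infliximab. It read 8.22, 8.03 and 8.03 at 6 h and 8.09, 8.13 and 7.98 at 24 h of CDP870, and 8.0, 8.08 and 8.18 in untreated cells. Infliximab arrays were below all others but spread widely at 24 h. The change was -0.53 ± 0.15 at 6 h (SE, limma adjusted p = 0.0403), kept in 12 of 25 alternative settings, and -0.51 at 24 h (adjusted p = 0.0559), not called. PES1, a member of the complex with BOP1 and WDR12, was lower, with a change of -0.37 at 6 h, while WDR12 had a change of 0.15 and WDR74 of -0.03 without a call.

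Of 41 other large subunit assembly factors, 13 were lower at 6 h and 10 at 24 h and 0 were higher, with a median of -0.26 at both times. LAS1L, a subunit of a nuclease complex that cuts the precursor, was lower, with changes of -0.72 at 6 h and -0.59 at 24 h (limma adjusted p = 0.000198 and 0.000979). MRTO4, an assembly factor of the ribosomal stalk, was lower, with changes of -0.63 and -0.72. Both were also lower than with CDP870 at both times, LAS1L at -0.63 and -0.55 and MRTO4 at -0.40 and -0.48.

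POP1 and GEMIN5 had the largest changes of the 31 members at 6 h of infliximab. POP1, the largest protein of RNase P and RNase MRP, which trim transfer RNA and ribosomal RNA precursors, read 4.24, 4.11 and 4.43 at 6 h and 4.70, 4.75 and 4.15 at 24 h of infliximab. CDP870 arrays read 5.34, 5.37 and 5.26 at 6 h and 5.20, 5.19 and 5.03 at 24 h, and untreated arrays 5.38, 4.97 and 5.28. Every infliximab array lay below every other array, with 4.75 as the highest infliximab value and 4.97 as the lowest of the others. The change was -0.95 ± 0.15 at 6 h, 1.93-fold lower, and -0.68 ± 0.15 at 24 h (SE, limma adjusted p = 0.00173 and 0.0149). The difference from CDP870 was -1.06 at 6 h, 2.09-fold lower, and -0.61 at 24 h.

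Of 8 other tested subunits of RNase P and RNase MRP, 3 were lower at 6 h and 4 at 24 h. POP4, POP7 and RPP40 were lower at both times, POP4 at -0.49 and -0.50, POP7 at -0.51 and -0.56, and RPP40 at -0.37 and -0.46. RPP30 was lower at 24 h, with a change of -0.39. Against CDP870 2 were lower at 6 h and 3 at 24 h, with POP4 among them each time.

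GEMIN5 is the subunit of the SMN complex that recognises small nuclear RNA for the assembly of spliceosomal particles, so it is no ribosome assembly factor in the strict sense. It read 5.38, 5.60 and 5.35 at 6 h and 5.78, 6.02 and 5.53 at 24 h of infliximab. CDP870 arrays read 6.46, 6.37 and 6.47 at 6 h and 6.45, 6.40 and 6.24 at 24 h, and untreated arrays 6.48, 6.30 and 6.41. Every infliximab array lay below every other array. GEMIN5 changed by -0.95 ± 0.12 at 6 h, 1.94-fold lower, and by -0.62 ± 0.12 at 24 h (SE, limma adjusted p = 0.000277 and 0.00647), and the difference from CDP870 was -0.99 at 6 h and -0.59 at 24 h.

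Of 7 other tested SMN complex members, 0 were lower than in untreated cells at 6 h and 1, GEMIN6, at 24 h, with a change of -0.39. Over all genes 5.7% were lower at 6 h and 3.45% at 24 h. At 6 h their median change was -0.21 and 4 of the 7 lay below all untreated arrays, where this held for 19.8% of all genes. GEMIN4 and GEMIN6 had changes of -0.43 and -0.28 at 6 h without a call. Against CDP870 GEMIN6 was lower at 6 h, with a change of -0.33, and STRAP at 24 h, with a change of -0.34.

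Genes of the cytosolic ribosomal proteins, the protein part of the ribosome, did not pass the test. Of 79 listed genes 52 were tested and 27 were not, and of the 52 tested 0 were called at 6 h and 0 at 24 h of infliximab by limma, and the median changes were 0.06 and 0.03. At 6 h 18 of the 52, or 34.6%, lay above all untreated arrays, where this held for 12.7% of all genes. RPS25 and RPL9 had the smallest p at 6 h, with 0.24 and 0.17, and neither passed. Of 13 nuclear exosome genes, whose products trim precursors from the end, EXOSC6 was higher at both times, by 0.46 and 0.45, EXOSC3 was lower at both, with changes of -0.35 and -0.40, and EXOSC2 was lower at 24 h, with a change of -0.48.

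**Figure D4:**
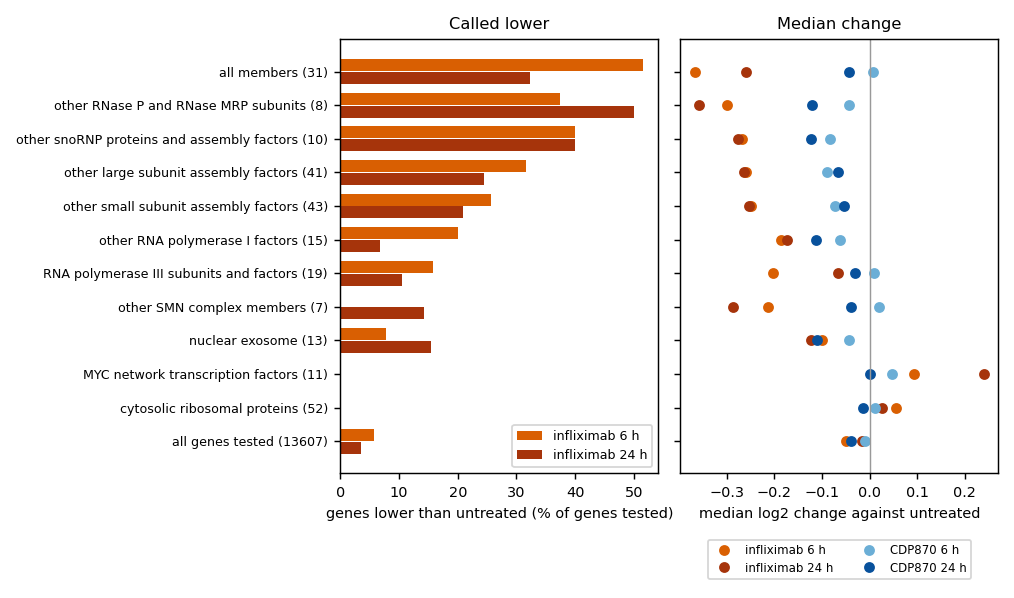
Share of tested genes called lower than in untreated cells with infliximab at 6 h and 24 h (bars, left, % of the number of genes in brackets), and median log2 change for infliximab and CDP870 at both times (points, right), by gene list. Assembly and snoRNP lists lie to the left with infliximab, and cytosolic ribosomal proteins lie near 0 in all 4 comparisons.

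Between the 2 times of infliximab 0 of 31 members were called by limma, where 0% of all genes were called, and 5 had an unadjusted p under 0.05, where 11.6% of all genes did. POLR1A, GEMIN5, FBL and RRP12 had higher values at 24 h than at 6 h, by 0.37, 0.33, 0.24 and 0.38, and PNO1 had a lower value, with a difference of -0.34. Leaving out replicate 7 of 24 h of infliximab gave 4 calls, POLR1A, RRP12, POP1 and GEMIN5, all higher at 24 h, and over all features it gave 2462 of 28897 probe sets, where the full set of arrays gave 0. Between the times of CDP870 0 members were called, and 0 had an unadjusted p under 0.05, where 4.33% of all genes did. The difference between agents in their change with time had 0 calls and 7 members at an unadjusted p under 0.05, where 9.15% of all genes were. Over the 5 groups together 14 of 31 members differed, where 11.4% of all genes did.

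Several measures of the arrays differed between the groups. The mean level of the spike-ins was 7.75 ± 0.04 at 6 h of infliximab, 7.51 ± 0.15 at 24 h of infliximab, 7.50 ± 0.12 at 6 h of CDP870, 7.60 ± 0.20 at 24 h of CDP870 and 7.38 ± 0.13 in untreated cells (SD, n = 3 each). Between 6 h of infliximab and untreated cells the spike-ins differed by 0.37, with p = 0.1 in a two-sided exact permutation test, the smallest p that 3 against 3 arrays allow. With the spike-in level as a covariate the count of lower members against CDP870 at 6 h was 4 in place of 13, and over all probe sets 254 in place of 1149. At 24 h the count of called members was 9 in place of 11 against untreated cells and 9 as before against CDP870. Over all probe sets the calls at 24 h were 1418 in place of 1899 and 1643 in place of 1882.

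Epithelial genes differed by agent. Of 5 tested epithelial markers, 4 were higher at 6 h and 5 at 24 h of infliximab than in untreated cells, and 5 were higher than with CDP870 at both times. The summed log2 level of the 7 markers on the array ran from 39.5 to 41.3 at 6 h and 40.2 to 40.7 at 24 h of infliximab, from 34.8 to 35.8 at 6 h and 35.1 to 35.7 at 24 h of CDP870, and from 37.2 to 38.5 in untreated cells. No marker was at 0. The 5 tested markers, EPCAM, KRT5, KRT8, KRT18 and KRT19, read 4.78 to 9.01 over all arrays. CDH1 and KRT14, which did not pass the filter, stayed at or below 2.28. With CDP870 the median of these markers was -0.45 at 6 h while the median of the 31 ribosome biogenesis genes was 0.01. The part of these genes in the results was not tested.

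Signal from the 3′ end over the 5′ end of the GAPDH and ACTB control probe sets was 0.24 and 0.27 log2 on replicate 6 of 24 h of infliximab, and between -0.14 and 0.03 on the other arrays. An earlier analysis of these data had set that array, replicate 5 of the same group and replicate 3 of the untreated cells apart. A fit without these 3 arrays was among the alternatives. It kept only replicate 7 of the 24 h infliximab group, so its counts are not given.

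**Figure D5:**
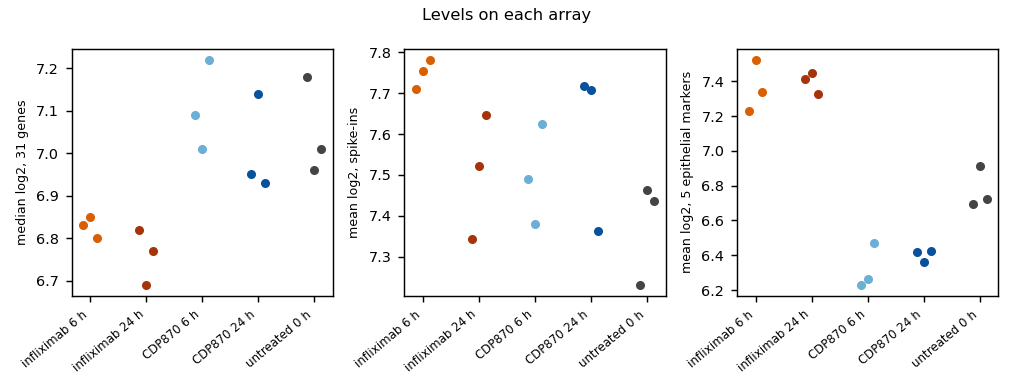
Median log2 level of the 31 genes (left), mean log2 level of the spike-ins (middle) and mean log2 level of 5 epithelial markers (right) on each array of the 5 groups, with 1 point an array. The median of the 31 genes lies lower on all 6 infliximab arrays, at 6.69 to 6.85, than on the other 9, at 6.93 to 7.22. Single genes such as MYC do not follow it.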

How the data were processed

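Expression was measured on 15 one-colour Affymetrix arrays. The deposited values are log2 expression levels, and per the submitters' processing notes GCOS 1.3.0 and GCRMA were used; how these were combined is not stated. No step was added to the deposited values. Of 54613 non-control probe sets, 41091 carry 1 gene symbol in the platform annotation, 1801 several and 11721 none; symbols were updated through the gene ID. A probe set was tested if it lay above its array's median on at least 3 of 15 arrays (28897 probe sets, 13607 genes); 62 of the 67 member probe sets and all 31 genes passed. limma 3.58.1 in R 4.3.3 fitted 1 mean per group over all 15 arrays, with Benjamini-Hochberg adjustment over all tested probe sets within each of 10 comparisons and a call at 5%. The procedure was tested on simulated data.

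The members, the gene lists and the tests were chosen with earlier results of these data known. All members are named; array values are given for MYC and the 12 members with the smallest p over the 5 groups, and for other lists up to 4 called genes with the smallest p. Array values of POLR1A were added after its values were seen. The number of arrays limits the precision. Alternatives covered normalization, filters, array weights, a spike-in covariate, a variance trend, the arrays in the fit, gene means and leaving out each array. Promoter sequences are from RefSeq.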

Additional observations from a re-analysis of the deposited data

How the results depend on the processing

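No result reversed under any of the alternatives run. For single genes and list medians, 6123 values kept their direction and side of the threshold or moved by less than the replicate spread, 194 fell back over it, 106 newly passed it and 2 medians moved. The 16 members called at 6 h of infliximab against untreated cells became 10 with no filter and 1 with the spike-in covariate. Calls over all probe sets were 1818 of 54613 and 181 of 28897 there, in place of 2432 of 28897. With the covariate the lower ones went to 40 in place of 1271. Leaving out single arrays gave 9 to 18 members, where calls over all probe sets ran from 1156 to 3187. The count of members was 9 without untreated replicate 3 and 10 without replicate 9 or replicate 10 of 6 h of infliximab. The 11 at 24 h became 0 when only the arrays compared were fitted, where calls over all probe sets were 200 in place of 1899. Such a fit leaves 6 arrays at either time. At 6 h against untreated cells it lost 5 of the 16 calls and gained 1, with 2073 calls over all probe sets. At 6 h against CDP870 it lost 0 and gained 3, with 5117 calls over all probe sets. The 11 became 8 to 12 when single arrays were left out, where calls over all probe sets ran from 1120 to 2620. The 13 against CDP870 at 6 h became 20 with array weights and 4 with the spike-in covariate. Calls over all probe sets were 6326 and 751 there, in place of 2622. The 13 became 6 to 15 when single arrays were left out, where calls over all probe sets ran from 1181 to 3326. The count of members was 8 without CDP870 replicate 14 or 15 and 6 without replicate 16. It was 7 and 8 without infliximab replicates 10 and 9. The 9 against CDP870 at 24 h became 0 with only the arrays compared, where calls over all probe sets were 331 in place of 1882. The 9 became 5 to 10 when single arrays were left out, where calls over all probe sets ran from 1074 to 2891. The count of members was 5 without CDP870 replicate 11. The 0 between the times of infliximab became 4 without replicate 7 of 24 h, where the count over all probe sets became 2462 of 28897. The 14 over the 5 groups became 9 with the spike-in covariate, where calls over all probe sets were 1695 in place of 2726. The 14 became 11 to 16 without single arrays, where calls over all probe sets ran from 1738 to 4673. The cause of these changes was not tested. Of the calls, GEMIN5 at 6 h against untreated cells, and GEMIN5, POP1, UTP20 and NOP2 at 6 h against CDP870, held in all 25 alternatives. No alternative called a member with CDP870 against untreated cells. The replicate numbers used here are running numbers from the sample titles, unique to each array. The labels do not match cultures across groups, so no paired analysis was possible. The signal over background cannot be judged from the deposited levels alone.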
